A study of Mus musculus with 12 samples.

Results

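Ligand-treated receptor-knockout cultures were compared with untreated intact cultures to ask how near the knockout cells stay to the resting intact state when TGFB1 is present. The cells were primary mouse stromal cells with a low Pdgfra H2B-GFP reporter signal, a nuclear green label driven from the Pdgfra locus. They come from a study of the intestinal stroma, and the labels call them mesenchyme. The groups compared were the intact cultures with vehicle, called Vehicle, and the cultures labelled Tgfbr2KO that received exogenous TGFB1, called Tgfbr2KO_TGFB1, each with 3 poly-A RNA-seq libraries. The intact cultures with TGFB1 (called TGFB1) and the labelled knockout with vehicle (Tgfbr2KO_Vehicle), also with 3 libraries each, served as reference states. The reporter is shared by all 4 groups as far as the labels say. The dose, the time of exposure, how the knockout was made, which exons it removes, and the age and number of mice are not given in the sources used here. Because both the genotype and the ligand differ between Tgfbr2KO_TGFB1 and Vehicle, their parts in a difference cannot be told apart within this contrast. The members were the genes with at least 1 FPKM (fragments mapped to a transcript, scaled to its length and to the library) in at least 3 of the 6 libraries of both groups, which were 12215 of the 25203 genes in the table.

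TGFB1 binds the type II receptor TGFBR2, which recruits and activates the type I receptor TGFBR1, and this kinase phosphorylates the transcription factors SMAD2 and SMAD3. In fibroblasts this pathway is known for raising matrix and contractile genes and for restraining inflammation. In the intestine the stromal cells below the epithelium supply R-spondins, BMP antagonists and EGF family ligands to epithelial stem cells.

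The receptor transcript itself did not separate the groups. Tgfbr2 was at 48.0, 38.2 and 78.8 FPKM in replicates 1, 2 and 3 of Vehicle, and at 31.6, 38.0 and 62.4 FPKM in Tgfbr2KO_TGFB1. The groups overlapped, and the log2 difference was -0.31 ± 0.30 (SE, limma adjusted p = 0.681). A value over the whole gene says nothing about a deletion of a few exons, so this level does not check the knockout label, and "knockout" below means the libraries labelled so. Genes that TGFB1 raised in intact cells, such as Eln and Jag1, give another reading of the labels further on.

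Replicate 3 of Vehicle and of Tgfbr2KO_TGFB1 stood apart from the other 2 libraries of its group, as shown in the map of library distances, whereas in TGFB1 and Tgfbr2KO_Vehicle it did not. Distance here is the median absolute difference in log2(FPKM + 1) over the 12215 genes. Vehicle replicates 1 and 2 lay 0.0987 apart, while replicate 3 lay 0.158 and 0.179 from them. The nearest library to Vehicle replicate 3 was Tgfbr2KO_TGFB1 replicate 3, at 0.116, and the nearest to Tgfbr2KO_TGFB1 replicate 3 was likewise Vehicle replicate 3. Counts of changed genes below are therefore also given without these libraries. What sets replicate 3 of these 2 groups apart was not tested. Depth relative to Vehicle replicate 1 was 0.963 to 1.04 in Vehicle and 0.801 to 1.24 in Tgfbr2KO_TGFB1, and absolute depth is unknown.

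**Figure D1:**
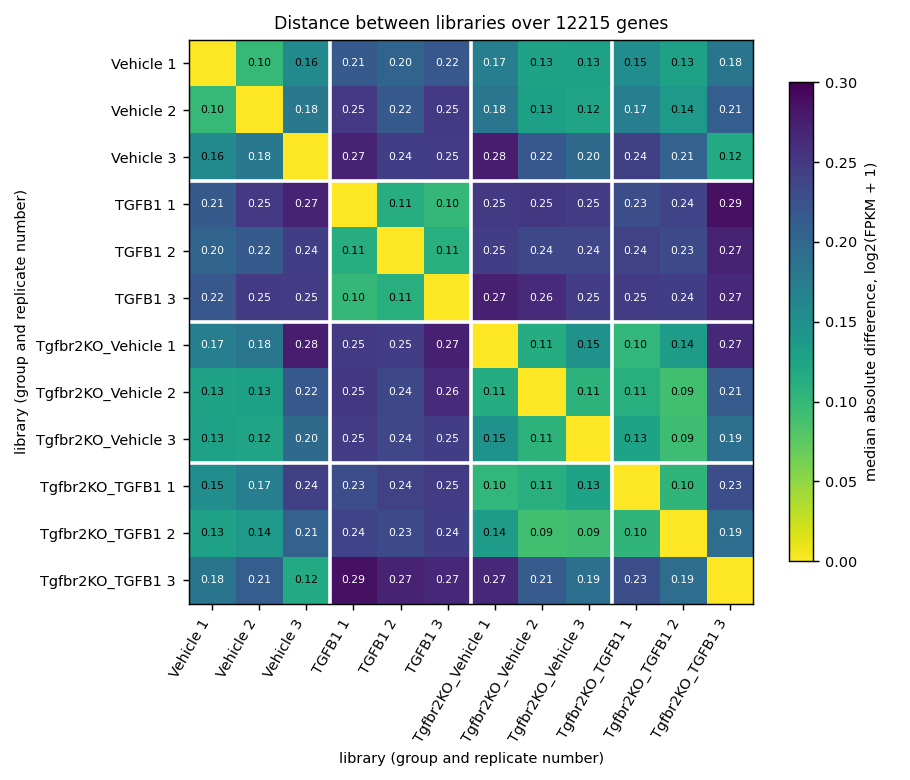
Median absolute difference in log2(FPKM + 1) over 12215 genes for each pair of the 12 libraries, from 0 (yellow) to 0.3 (dark). Vehicle and Tgfbr2KO_TGFB1 pairs lie between 0.116 and 0.243, and pairs of Vehicle and TGFB1 between 0.203 and 0.271.

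The ligand-treated knockout stayed near the resting intact state over most of the transcriptome. Of the 12215 genes, 58 passed an adjusted p of 0.05 (0.475%), 36 of them higher in Tgfbr2KO_TGFB1 (0.295%) and 22 lower (0.18%). For 11153 genes (91.3%) the 95% interval of the difference lay within 2-fold in either direction, and for 11 genes it lay wholly beyond 2-fold. The median absolute log2 difference was 0.112, against a median standard error of 0.107. The difference itself reached 2-fold for 139 genes, of which 11 were called. The spread behind these values was pooled over all 4 groups, and libraries varied more within Vehicle and Tgfbr2KO_TGFB1 than within the other 2. With only the 2 groups compared, 0 genes passed (limma, smallest adjusted p = 0.11).

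The same genes moved far more when the ligand met intact cells. Between TGFB1 and Vehicle 3950 genes were called (32.3%), 775 genes differed by at least 2-fold, and the interval lay within 2-fold for 10147 (83.1%). Between Tgfbr2KO_TGFB1 and TGFB1, both of which received the ligand, 4173 genes were called (34.2%). The knockout with vehicle differed from Vehicle at 165 genes (1.35%), and the 2 knockout groups differed from each other at 0 genes (0%, limma, 728 genes at an unadjusted p under 0.05). These comparisons share libraries, so the counts are set side by side and are not independent. Distances between single libraries showed the same order in part. Those from Vehicle to Tgfbr2KO_TGFB1 had a median of 0.172, and those from Vehicle to TGFB1 a median of 0.2445, but the ranges overlapped. Within groups the median was 0.158 for Vehicle and 0.192 for Tgfbr2KO_TGFB1. Replicates 1 and 2 of Tgfbr2KO_TGFB1 lay nearest to Tgfbr2KO_Vehicle libraries, at 0.101 and 0.0913.

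How many genes pass depends on the pairing of the libraries. The shared replicate numbers were taken to pair the samples, though their meaning is not given. With the number as a block 639 genes were called (5.23%), 373 higher (3.05%) and 266 lower (2.18%), among them all 58. The interval then lay within 2-fold for 11440 genes (93.7%), so more genes were told apart from Vehicle while fewer could differ by 2-fold. This block is 1 shift per number shared by all 4 groups, although replicate 3 stood apart in only 2 of them. Fitted to the 2 groups alone, the block gave 99 genes, of which 18 were among the 58. The 3 and 3 libraries did not overlap at 2187 genes (17.9%), 1138 above and 1049 below. Without Tgfbr2KO_TGFB1 replicate 3 the count was 346, without Vehicle replicate 3 it was 3, and without replicate 3 of all groups it was 81, of which 25 were among the 58. Without Tgfbr2KO_TGFB1 replicate 2 no gene passed (0, limma, 1423 at an unadjusted p under 0.05), and the other libraries left 10 to 14 when removed singly. Membership of the set thus varied between settings, and 34 of the 58 had an adjusted p above 0.045. All 58 were without overlap between the groups, which fixes their direction in each pair.

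**Figure D2:**
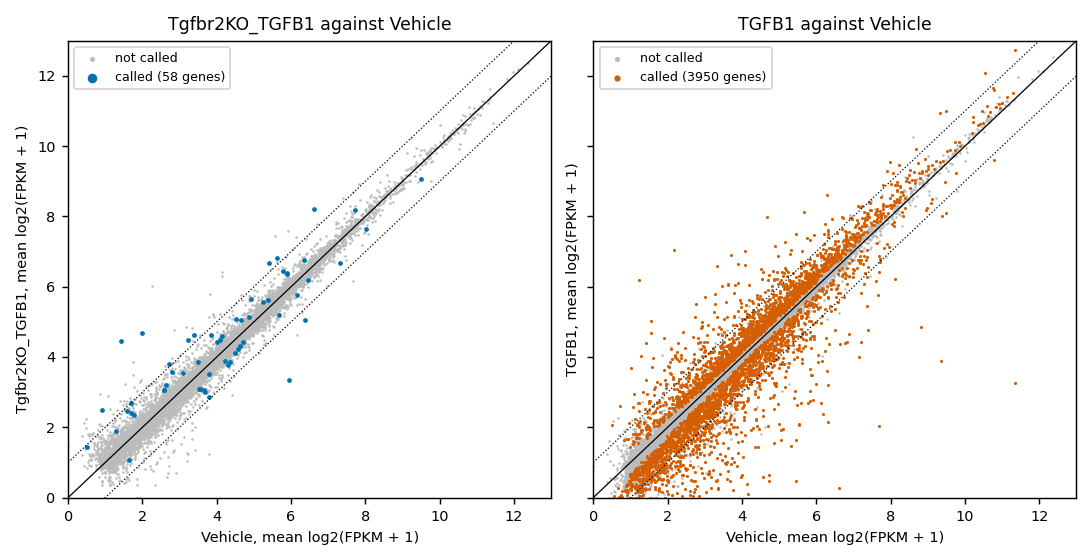
Mean log2(FPKM + 1) of each of 12215 genes in Vehicle (horizontal) against Tgfbr2KO_TGFB1 (left) and TGFB1 (right), with the line of equality and dotted lines at 2-fold. Coloured points are the 58 and 3950 genes called, and the cloud on the left is narrower than on the right.

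Of the matrix metalloproteinase genes, Mmp3 was called, and Mmp8, Mmp10 and Mmp13 were among those that passed with the block only. Mmp8, outside the gene lists, went from 4.2, 1.4 and 2.0 FPKM in Vehicle to 19.5, 17.7 and 6.9 FPKM in Tgfbr2KO_TGFB1. Its limma adjusted p was 0.0753 without and 0.0214 with the block, and its promoter is not printed. The promoters of Mmp3, Mmp10 and Mmp13 are printed here with that of Lcn2, another called gene, for comparison. AP-1, the dimer of FOS and JUN proteins, is a textbook regulator of collagenase and stromelysin genes, and its site was searched as TGANTCA on both strands. The windows run from 250 bases before to 50 after the start of the RefSeq gene, in the GRCm38.p6 build, and are written 5′ to 3′ on the gene's strand with any AP-1 match in capitals. They lie at chr9:7445572-7445871 (plus strand) for Mmp3, chr9:7502092-7502391 (plus strand) for Mmp10, chr9:7272264-7272563 (plus strand) for Mmp13 and chr2:32387690-32387989 (minus strand) for Lcn2.
Mmp3: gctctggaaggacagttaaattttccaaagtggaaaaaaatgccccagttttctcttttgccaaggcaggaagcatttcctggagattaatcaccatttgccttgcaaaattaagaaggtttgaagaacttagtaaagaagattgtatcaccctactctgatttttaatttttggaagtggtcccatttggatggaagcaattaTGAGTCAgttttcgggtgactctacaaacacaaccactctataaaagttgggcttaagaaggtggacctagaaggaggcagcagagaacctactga
Mmp10: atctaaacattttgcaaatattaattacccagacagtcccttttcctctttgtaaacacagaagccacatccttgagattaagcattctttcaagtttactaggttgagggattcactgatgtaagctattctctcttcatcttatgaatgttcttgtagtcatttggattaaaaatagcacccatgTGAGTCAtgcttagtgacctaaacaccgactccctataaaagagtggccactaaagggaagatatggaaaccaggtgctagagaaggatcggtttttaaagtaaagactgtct
Mmp13: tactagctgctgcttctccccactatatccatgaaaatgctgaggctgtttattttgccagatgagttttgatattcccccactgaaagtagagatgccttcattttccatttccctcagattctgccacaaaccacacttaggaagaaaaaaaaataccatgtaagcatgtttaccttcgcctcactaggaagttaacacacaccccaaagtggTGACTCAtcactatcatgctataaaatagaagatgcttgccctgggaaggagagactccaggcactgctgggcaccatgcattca
Lcn2: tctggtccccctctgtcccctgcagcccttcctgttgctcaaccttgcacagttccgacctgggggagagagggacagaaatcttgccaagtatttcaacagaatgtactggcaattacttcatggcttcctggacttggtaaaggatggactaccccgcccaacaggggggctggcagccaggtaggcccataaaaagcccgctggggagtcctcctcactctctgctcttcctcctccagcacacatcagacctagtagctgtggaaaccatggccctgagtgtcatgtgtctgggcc

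Each of the 3 protease windows held 1 AP-1 match, starting 46, 63 and 35 bases before the start of Mmp3, Mmp10 and Mmp13, and the Lcn2 window held none. The motif was present in 469 of the 9586 tested genes with a promoter in the table (4.89%) and in 7.93% of all its 27025 promoters. Of the 36 genes called higher, 28 had a promoter and 4 of these held the motif, namely Mmp3, Il13ra2, Ifi209 and Klra2. None of the 16 promoters of genes called lower held it. With the block, 26 of 284 genes higher (9.15%) and 4 of 207 lower (1.93%) held it. The NF-kB consensus, searched the same way, was in 1 of 28 promoters of genes called higher, in 2 of 16 of genes called lower and in 10.3% of those tested. With the block it was in 31 of 284 higher (10.9%) and 25 of 207 lower (12.1%), near the share of all genes tested. A match describes letters in these windows and is not evidence of binding.

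Of the 23 matrix proteases and inhibitors tested, 15 were higher and 8 lower in the treated knockout, and 1, Mmp3, was called. Mmp3, stromelysin 1, was at 4.87, 2.47 and 2.00 FPKM in Vehicle and at 35.9, 34.3 and 11.6 FPKM in Tgfbr2KO_TGFB1. All 3 knockout libraries lay above all Vehicle libraries, and the mean rose 8.77-fold (log2 difference 2.69 ± 0.48 (SE), limma adjusted p = 0.0483). Mmp3 stood at 25.9 ± 14.0 FPKM (SD, n = 3) in the knockout with vehicle and at 0.154 ± 0.145 FPKM (SD, n = 3) in intact cells with TGFB1. Mmp10, stromelysin 2, was at 27.9, 17.4 and 9.20 FPKM in Vehicle and at 139, 114 and 37.1 FPKM in the treated knockout. Its adjusted p was 0.0848 without and 0.015 with the replicate block. Mmp13, a collagenase, went from 1.34, 1.1 and 0.845 FPKM to 10.1, 7.98 and 3.03 FPKM, with an adjusted p of 0.0908 without and 0.0345 with the block. In both groups replicate 3 was the lowest library for each of these genes. The knockout with vehicle stood at 95.8 FPKM for Mmp10 and 9.90 FPKM for Mmp13. None fell, and with the block 5 rose (Mmp3, Mmp10, Mmp13 and the cathepsins Ctsk and Ctsl) and 1 fell (Adam12). The list's median log2 difference was 0.17, beside -0.0018 over all genes tested.

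Acute phase and inflammatory genes held 2 called rises, Lcn2 and Vcam1. Lcn2, a secreted protein that binds bacterial iron carriers, was at 126, 106 and 69.5 FPKM in Vehicle and at 267, 268 and 369 FPKM in Tgfbr2KO_TGFB1, a 3.00-fold higher mean (log2 1.60 ± 0.23 (SE), limma adjusted p = 0.0275). The groups did not overlap. In intact cells TGFB1 left Lcn2 at 0.457, 0.0995 and 0.0919 FPKM, so the treated knockout lay on the far side of Vehicle from the treated intact cells. The knockout with vehicle had 180, 226 and 257 FPKM of Lcn2. Vcam1, an adhesion molecule for leukocytes, was at 53.2, 62.7 and 58.6 FPKM against 87.1, 85.3 and 77.2 FPKM, again without overlap (log2 0.51 ± 0.08 (SE), adjusted p = 0.0371). Vcam1 was at 82.4, 81.6 and 73.1 FPKM in the knockout with vehicle. Il6, the cytokine that induces acute phase genes, was at 66.2, 71.8 and 59.2 FPKM in Vehicle and at 117, 150 and 136 FPKM in the treated knockout. It missed the threshold without the block (adjusted p = 0.0629) and passed it with the block (0.0198). Saa3, an acute phase protein, was at 2310, 2870 and 2628 FPKM in Vehicle and at 1659, 2614 and 7319 FPKM in the treated knockout, where replicate 3 alone was high. The groups overlapped (adjusted p = 0.856), while TGFB1 in intact cells left Saa3 at 6.15 to 11.9 FPKM.

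Of 23 acute phase and inflammatory genes tested, 2 rose and none fell, and with the block 7 rose. The list's median difference was 0.31, against -1.61 for TGFB1 minus Vehicle and 0.14 for Tgfbr2KO_Vehicle minus Vehicle. By number it was 0.0594, 0.137 and 0.696, so it was widest in the replicate 3 pair. S100a8, a calprotectin subunit, had the widest difference of all genes tested, with 11.2, 4.05 and 0.727 FPKM in Vehicle and 188, 125 and 10.3 FPKM in Tgfbr2KO_TGFB1. Replicate 3 of the treated knockout lay below replicate 1 of Vehicle, and the adjusted p was 0.124 without and 0.0208 with the block. In the knockout with vehicle S100a8 was at 219, 122 and 39.5 FPKM. Its partner S100a9 was listed at 0 in all 3 Vehicle libraries and was under 1 FPKM in each treated knockout library.

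Leukocyte transcripts varied between libraries within each group. The 14 macrophage and leukocyte markers summed to 498, 43.2 and 738 FPKM in Vehicle and to 310, 422 and 220 FPKM in the treated knockout. The T cell marker Cd3e was listed at 0 in both groups. Lyz2, the lysozyme of macrophages, was at 372, 24.8 and 547 FPKM in Vehicle and at 87.0, 226 and 156 FPKM in Tgfbr2KO_TGFB1. Without S100a8, the marker genes tested were lower in pairs 1 and 3 and higher in pair 2. The part of these cells in other genes was not tested. In bulk RNA, fewer cells of a type and less RNA per cell cannot be told apart.

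Of the 14 chemokines tested none was called, the median difference was 0.70 and 11 were higher. The pairs gave medians of 0.203, 1.03 and 0.881, and the median was 0.452 without pair 3. With the block 3 rose, namely Cxcl1, Cxcl10 and Cxcl16. Cxcl1, which attracts neutrophils, was at 256, 189 and 95.6 FPKM in Vehicle and at 490, 373 and 273 FPKM in the treated knockout. Its groups did not overlap, and its adjusted p was 0.141 without and 0.0318 with the block.

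**Figure D3:**
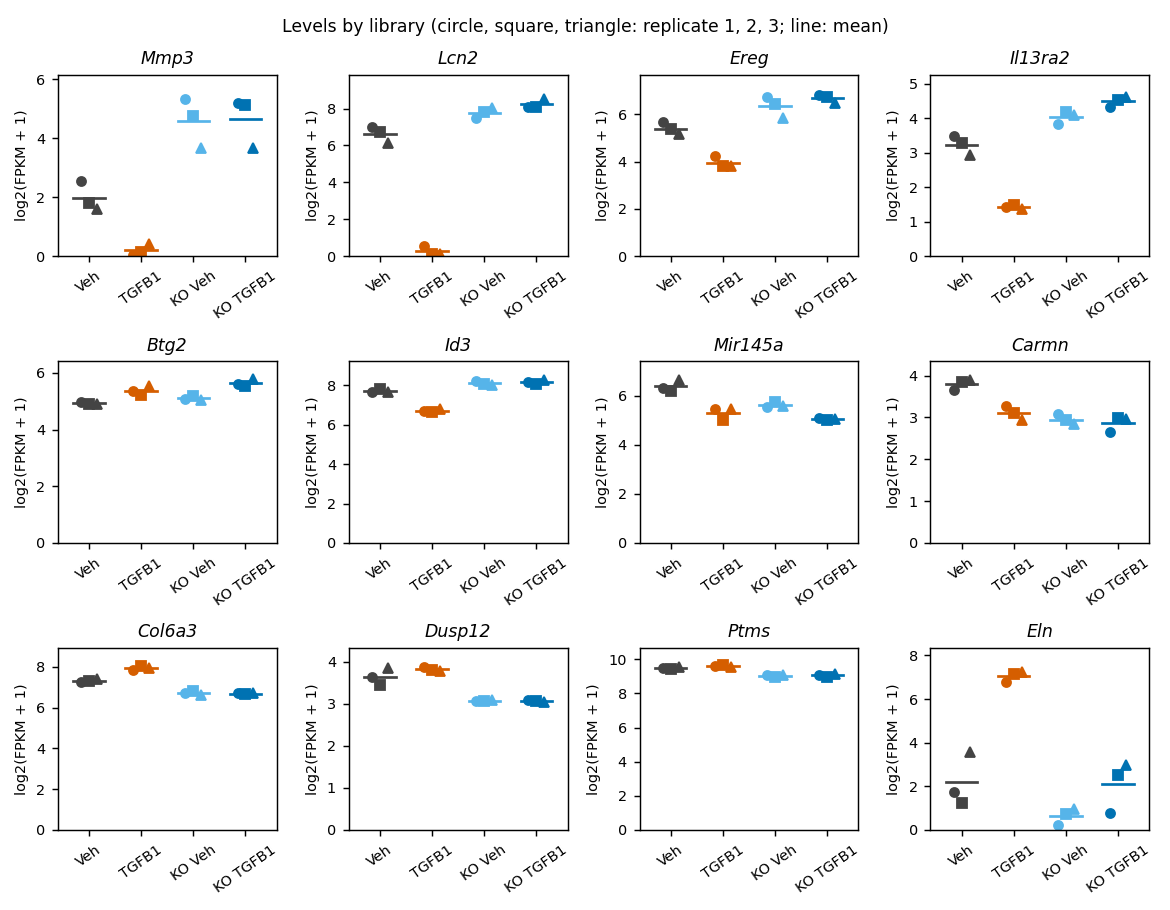
Levels of 12 genes as log2(FPKM + 1) in each of the 12 libraries, by group (Veh, Vehicle; KO, labelled Tgfbr2 knockout), with the group mean as a line and the replicate number as the symbol. In the treated knockout Mmp3, Lcn2, Ereg, Il13ra2, Btg2 and Id3 lie above Vehicle and Mir145a, Carmn, Col6a3, Dusp12 and Ptms below it, while Eln overlaps Vehicle and is far below TGFB1.

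Among ligands of the EGF receptor family, 1 was called. Ereg, epiregulin, was at 49.6, 40.3 and 35.2 FPKM in Vehicle and at 114, 105 and 87.4 FPKM in Tgfbr2KO_TGFB1 (log2 1.27 ± 0.22 (SE), limma adjusted p = 0.0483). The lowest treated knockout library was above the highest Vehicle library. Areg, amphiregulin, had 2.80, 1.80 and 1.32 FPKM against 14.0, 8.84 and 4.52 FPKM and passed with the block only (adjusted p = 0.0893 without and 0.0214 with it). Hbegf, another ligand of the receptor, was at 18.7, 20.2 and 10.6 FPKM against 28.8, 28.5 and 9.44 FPKM, with overlap and lower in pair 3. Nrg1, neuregulin 1, which signals through the related ERBB3 and ERBB4, had 10.3, 7.70 and 6.60 FPKM against 15.5, 17 and 10.7 FPKM and also passed with the block only (0.124 and 0.0178). Of 28 growth factors tested, 14 were higher and 14 lower, with differences from -1.50 to 1.68 on the log2 scale and a median of 0.000576. Only 1 was called, a rise, and with the block 4 rose and 2 fell.

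Other named rises spanned several roles. Crct1, a gene of the cornified envelope of skin, had the widest difference among called genes, from 1.83, 2.53 and 0.904 FPKM to 41.6, 24.4 and 8.52 FPKM (log2 3.03 ± 0.51 (SE), adjusted p = 0.0483). Each of its treated knockout libraries was above every Vehicle library, and its spread within the knockout was wide. Il13ra2, the decoy receptor for interleukin 13, was at 10.3, 8.69 and 6.68 FPKM in Vehicle and at 18.9, 22.3 and 23.7 FPKM in the treated knockout (log2 1.26 ± 0.14 (SE), adjusted p = 0.0128). In intact cells with TGFB1 it was at 1.70 ± 0.113 FPKM (SD, n = 3). Adora2b, an adenosine receptor, rose 1.83-fold, and Slfn2, of the Schlafen family, rose 1.79-fold.

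Btg2, an antiproliferative gene induced by many stimuli, was also called. It was at 30.1, 29.0 and 29.2 FPKM in Vehicle and at 48.0, 45.4 and 53.8 FPKM in Tgfbr2KO_TGFB1 (log2 0.71 ± 0.08 (SE), adjusted p = 0.0128). The knockout with vehicle was at 33.4 ± 1.81 FPKM (SD, n = 3), nearer to Vehicle than to the treated knockout, although no gene differed between the 2 knockout groups at the threshold. H2bc8, a replication-type histone H2B gene, followed the same order, with means of 9.55 FPKM in Vehicle, 14.1 in the knockout with vehicle and 23.8 in the treated knockout. H2bc8, Klra2 and Gm4070 have near-identical relatives between which reads could be split, so their values are uncertain. Wdr92, with 56.7, 48.1 and 40.3 FPKM against 138, 120 and 81.7 FPKM, completed the named rises.

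Among called genes chosen after their values were seen, Nfe2l2, the oxidative stress factor NRF2, went from 61.4, 56.4 and 57.9 FPKM to 80.7, 78.9 and 82.4 FPKM (log2 0.46 ± 0.06 (SE), adjusted p = 0.0161). Tlr4, the receptor for bacterial lipopolysaccharide, went from 5.56, 4.81 and 4.46 FPKM to 7.64, 6.86 and 7.57 FPKM (adjusted p = 0.0371). Plpp3, a phosphatase of lysophosphatidic acid, went from 50.1, 57.2 and 53.9 FPKM to 80.0, 80.2 and 97.4 FPKM (adjusted p = 0.0186), while TGFB1 in intact cells left it at 5.42 FPKM. None of the 3 overlapped between groups.

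Among genes called without the block, the 3 steepest falls came from a single locus. Carmn is a long noncoding RNA of smooth muscle and heart, and its annotation holds the precursors of 2 microRNAs, Mir143 and Mir145a, so reads over them cannot be assigned to one alone. Carmn was at 11.6, 13.5 and 13.7 FPKM in Vehicle and at 5.30, 6.87 and 6.74 FPKM in Tgfbr2KO_TGFB1 (log2 -0.94 ± 0.12 (SE), limma adjusted p = 0.0157). Mir145a was at 78.0, 72.7 and 98.7 FPKM against 32.8, 31.4 and 32.0 FPKM (log2 -1.34 ± 0.13 (SE), adjusted p = 0.00833). Mir143 was at 81.0, 32.0 and 83.3 FPKM against 5.67, 11.9 and 11.2 FPKM (log2 -2.59 ± 0.38 (SE), adjusted p = 0.0359). All 3 were separated between the groups, and the 2 microRNA rows are values of the precursor region in a poly-A library, not mature microRNA. TGFB1 in intact cells and the knockout with vehicle also stood below Vehicle, with Carmn at 7.60 and 6.73 FPKM.

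Collagen and matrix genes were lower on the whole, but 1 was called. Col6a3, a chain of type VI collagen, was at 152, 158 and 169 FPKM in Vehicle and at 103, 99.0 and 104 FPKM in Tgfbr2KO_TGFB1, without overlap (log2 -0.64 ± 0.06 (SE), adjusted p = 0.00833). The knockout with vehicle stood at 103 ± 6.35 FPKM (SD, n = 3) and intact cells with TGFB1 at 245 ± 14.4 FPKM (SD, n = 3), so Col6a3 was above Vehicle in intact cells with the ligand and below it in both knockout groups. Of 30 matrix genes tested 26 were lower, with a median of -0.28, against 0.53 for TGFB1 minus Vehicle and -0.74 for Tgfbr2KO_Vehicle minus Vehicle. The 3 pairs gave medians of -0.685, -0.129 and -0.237. With the block 2 fell, Col6a3 and the lysyl oxidase Loxl1. Col1a1, a type I collagen chain, was at 2546, 2165 and 3881 FPKM against 1166, 1469 and 2478 FPKM, with overlap and an adjusted p of 0.241. Col3a1 was at 635, 610 and 1738 FPKM against 242, 419 and 1304 FPKM. In both groups replicate 3 was the highest library for Col1a1 and Col3a1.

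The other named falls were small and even between libraries. Ptms, parathymosin, was at 720, 684 and 753 FPKM against 540, 497 and 566 FPKM (log2 -0.43 ± 0.06 (SE), adjusted p = 0.03). Dusp12, a dual-specificity phosphatase, was at 11.4, 9.87 and 13.4 FPKM against 7.44, 7.41 and 7.23 FPKM (log2 -0.58 ± 0.09 (SE), adjusted p = 0.036). The knockout with vehicle had means of 522 FPKM for Ptms and 7.41 FPKM for Dusp12. Zfp469, a zinc finger gene linked to corneal collagen, fell from 19.6, 17.4 and 19.0 FPKM to 11.7, 13.8 and 12.7 FPKM, and Vash2, an angiogenic factor, from 10.7, 10.6 and 9.93 FPKM to 7.57, 7.13 and 7.99 FPKM. In intact cells TGFB1 raised both, to 38.0 and 17.3 FPKM. Gm13889, Snhg20, Irf2bpl and Hmces also fell, by 0.67, 0.50, 0.48 and 0.47 on the log2 scale. Tgfb1i1, a focal adhesion protein that TGFB1 is known to induce, was chosen after its values were seen and went from 88.0, 86.8 and 84.3 FPKM to 73.9, 70.6 and 69.6 FPKM (adjusted p = 0.0483).

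Genes that report TGFB signalling were, as a list, centred near Vehicle. Of 19 early SMAD target genes tested none was called, and their median difference was -0.06, against 0.80 for TGFB1 minus Vehicle, where 12 rose and 2 fell. The interval lay within 2-fold for 15 of the 19. With the block 3 rose, Cdkn2b, Junb and Id1. In TGFB1 Cdkn2b and Junb were higher than in Vehicle. Id1 was lower there, at 17.7, 16.3 and 20.3 FPKM against 61.7, 61.1 and 48.4 FPKM in Vehicle. The groups did not overlap for 2 members above Vehicle and 3 below it, beside 17.9% of all genes tested. The 3 below were Pmepa1, Ldlrad4 and Adamts6, each higher in TGFB1 than in Vehicle. Pmepa1 went from 41.5, 35.2 and 37.6 FPKM to 26.2, 32.1 and 24.8 FPKM, and was at 141, 113 and 113 FPKM in TGFB1. Ccn2, connective tissue growth factor, was at 803, 739 and 455 FPKM against 858, 695 and 300 FPKM, while intact cells with TGFB1 were at 1982 ± 19.4 FPKM (SD, n = 3). The feedback inhibitor Smad7 was at 21.2 ± 6.19 FPKM in Vehicle and 24.2 ± 8.46 FPKM in the treated knockout (SD, n = 3 each). Tgfbi gave the largest gap in the list, from 41.8, 52.9 and 156 FPKM to 7.48, 16.9 and 99.9 FPKM, with overlap and an adjusted p of 0.468. Intact cells with TGFB1 were also below Vehicle for Tgfbi, at 10.6, 16.4 and 20.0 FPKM.

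Eln and Jag1 show how far these genes could move. Eln, elastin, was at 2.32, 1.35 and 10.8 FPKM in Vehicle and at 0.693, 4.69 and 6.93 FPKM in the treated knockout, against 108, 141 and 148 FPKM in intact cells with TGFB1. Its log2 difference from Vehicle was -0.09, with a 95% interval from -1.50 to 1.32, so a 2-fold change in either direction is inside the interval. Jag1, a Notch ligand, was at 9.19, 11.2 and 7.03 FPKM in Vehicle and 6.87, 9.55 and 3.86 FPKM in the treated knockout, and at 94.6 ± 5.58 FPKM (SD, n = 3) in intact cells with TGFB1. For both genes every treated knockout library was far below every TGFB1 library (adjusted p = 0.000213 for Eln and 2.82e-06 for Jag1 between Tgfbr2KO_TGFB1 and TGFB1).

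Of the 24 TGFB ligands, receptors and SMADs tested none was called, and the interval lay within 2-fold for 22. The ligand transcript Tgfb1 was at 32.3, 25.1 and 30.0 FPKM against 31.5, 31.7 and 30.6 FPKM. With the block 2 fell, the latent TGFB binding protein Ltbp4, from 14.8, 14.0 and 21.3 FPKM to 6.91, 9.33 and 12.3 FPKM, and the SMAD corepressor Ski.

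Contractile genes were slightly lower in most cases. Of 21 tested none was called with or without the block, 19 had a lower mean of log2 values, the median difference was -0.11, and the interval lay within 2-fold for 20. Acta2, smooth muscle actin, was at 2022, 1945 and 1657 FPKM against 2148, 1861 and 1396 FPKM (log2 -0.07 ± 0.14 (SE), adjusted p = 0.852). The list's pair medians were -0.00209, -0.0902 and -0.247. For Acta2 both groups had their lowest value in replicate 3.

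Niche factors for the epithelium differed from Vehicle in both directions, from -0.91 to 0.74 on the log2 scale. Among 14 niche factors and WNT agonists tested none was called, the median difference was -0.03, and for TGFB1 minus Vehicle it was -2.26 with 9 called lower and 3 higher. The interval lay within 2-fold for 6 of the 14, so most were not bounded closely. The pair medians were 0.00317, 0.0206 and 0.467, with 11 of 14 higher in pair 3. Grem1, a BMP antagonist, was at 789, 642 and 740 FPKM in Vehicle, at 910, 867 and 1108 FPKM in Tgfbr2KO_TGFB1 and at 339, 250 and 234 FPKM in TGFB1. Its treated knockout libraries all lay above Vehicle (log2 0.41 ± 0.15 (SE), adjusted p = 0.214). Rspo3, which amplifies WNT signals, was at 8.98, 7.97 and 17.5 FPKM in Vehicle and at 6.81, 8.57 and 19.3 FPKM in the treated knockout. Pdgfra, the receptor that marks these cells, was at 137, 125 and 165 FPKM in Vehicle and at 67.3, 83.2 and 195 FPKM in the treated knockout, against 15.2 ± 4.01 FPKM (SD, n = 3) in TGFB1. Its difference from Vehicle was -0.45 ± 0.38 (SE, adjusted p = 0.619), lower in pairs 1 and 2 and higher in pair 3. Bmp4 was at 20.3, 14.0 and 12.2 FPKM against 27.4, 29.5 and 19.8 FPKM (adjusted p = 0.181), and TGFB1 in intact cells left it at 1.24 FPKM.

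Of the 12 BMP-SMAD targets tested, Id3, an inhibitor of basic helix-loop-helix factors, rose. It was at 204, 225 and 200 FPKM in Vehicle and at 286, 267 and 312 FPKM in the treated knockout (log2 0.46 ± 0.08 (SE), adjusted p = 0.0478), and TGFB1 in intact cells left it at 103 ± 5.10 FPKM (SD, n = 3). In the knockout with vehicle Id3 was at 292, 269 and 257 FPKM. Its relative Id1 rose with the block only, from 61.7, 61.1 and 48.4 FPKM to 86.4, 71.9 and 85.0 FPKM. Across the list 9 genes were higher and 3 lower, with a median of 0.19.

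**Figure D4:**
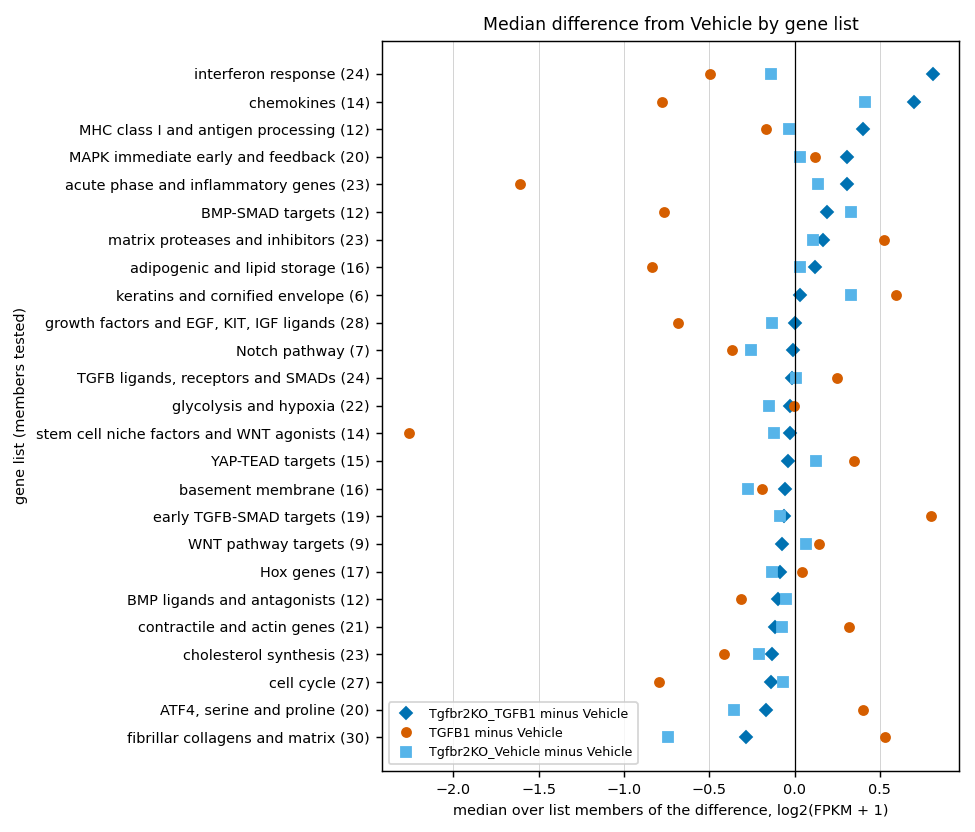
Median over the tested members of each of 25 gene lists of the difference from Vehicle in log2(FPKM + 1), for Tgfbr2KO_TGFB1 (diamonds), TGFB1 (circles) and Tgfbr2KO_Vehicle (squares), ordered by the first. The diamonds run from -0.28 for matrix genes to 0.81 for interferon response genes, and the circles reach -2.26; the 3 series share the Vehicle libraries.

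Interferon response genes had the largest median of the lists, and it did not hold in every pair. All 24 tested members had a higher group mean of log2 values in the treated knockout, with a median of 0.81, and none was called. By pair the median was -0.475 in pair 1, 1.32 in pair 2 and 1.4 in pair 3, with 3, 24 and 24 members higher. Isg15, a ubiquitin-like protein induced by interferon, was at 12.3, 4.41 and 13.5 FPKM in Vehicle and at 5.34, 40.9 and 86.4 FPKM in Tgfbr2KO_TGFB1 (log2 1.49 ± 0.82 (SE), adjusted p = 0.415). Replicate 1 of the treated knockout lay inside the Vehicle range, and replicates 2 and 3 above it. Usp18, the protease that removes ISG15, was at 3.28, 1.19 and 2.97 FPKM against 4.99, 11.5 and 18.2 FPKM, without overlap, and passed with the block only (adjusted p = 0.0743 without and 0.0331 with it). Ifit2 was the other member to pass with the block. For Tgfbr2KO_Vehicle minus Vehicle the list's median was -0.14. The list does not hold every interferon gene. Ifi209, an interferon-activated gene outside it chosen after its values were seen, was called higher in the treated knockout (log2 1.57).

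The 12 tested genes of MHC class I and antigen processing had medians of -0.0576, 0.639 and 0.535 over the 3 pairs and none was called. With the block 2 rose, B2m, the light chain of class I molecules, from 399, 345 and 393 FPKM to 506, 544 and 685 FPKM, and H2-T22, whose near-identical relatives make its value uncertain.

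**Figure D5:**
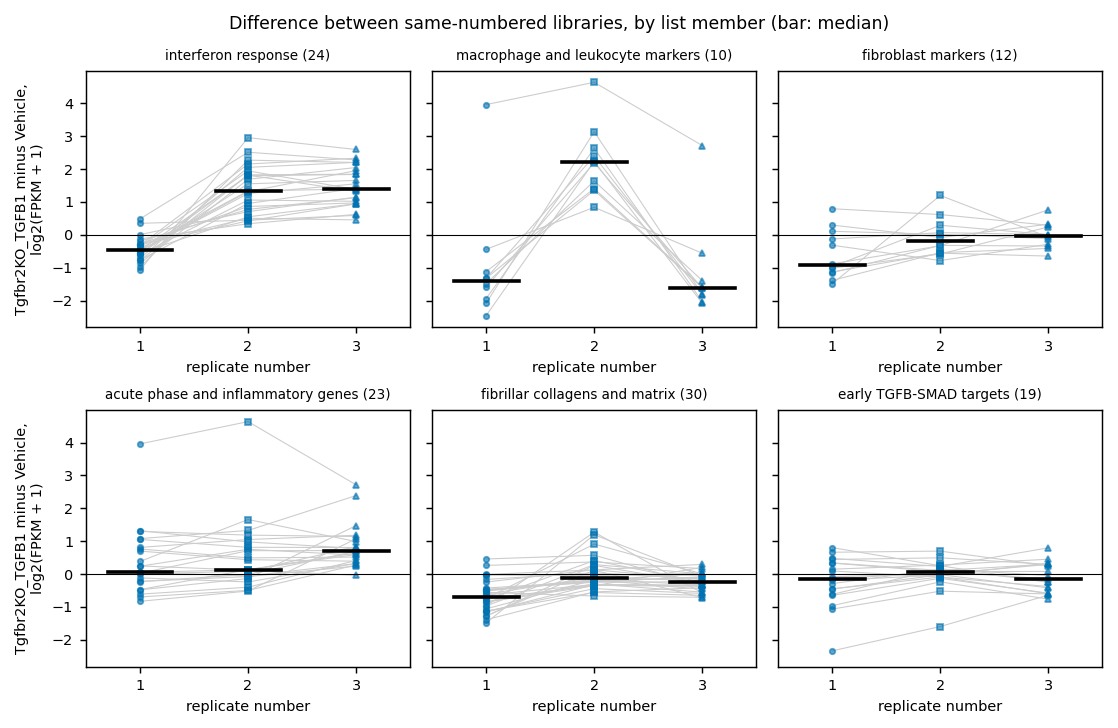
Difference between same-numbered Tgfbr2KO_TGFB1 and Vehicle libraries in log2(FPKM + 1) for each tested member of 6 lists (points, joined by gene), with the list median as a bar. The interferon median runs from -0.475 in pair 1 to 1.4 in pair 3, the macrophage and leukocyte median is 2.21 in pair 2 and below 0 in the others, and the medians of the early SMAD targets lie between -0.159 and 0.0738.

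Immediate early genes of the MAPK pathway were higher in 16 of 20 tested, with a median of 0.31 and none called. With the block 4 rose, Fos, Egr1, Junb and Spry2. Fos, a subunit of AP-1, was at 5.56, 7.27 and 12.2 FPKM in Vehicle and at 12.6, 12.7 and 22.5 FPKM in Tgfbr2KO_TGFB1, without overlap (adjusted p = 0.152 without and 0.0299 with the block). Egr1 was at 36.8, 48.9 and 66.3 FPKM against 68.3, 76.9 and 99.7 FPKM (0.201 and 0.0207). In the knockout with vehicle Fos and Egr1 were at 5.83 and 36.2 FPKM, below both.

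Amino acid genes of the ATF4 pathway were lower in 16 of 20, with a median of -0.17 and none called. With the block 6 fell, among them the amino acid carrier Slc7a5, from 60.5, 53.4 and 65.0 FPKM to 40.4, 39.7 and 46.5 FPKM (adjusted p = 0.0629 without and 0.0207 with the block). In intact cells TGFB1 raised 13 members of this list and lowered none.

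Lists for growth and identity were close to Vehicle. The interval lay within 2-fold for 26 of 27 cell cycle genes, all 23 cholesterol synthesis genes and all 17 Hox genes tested, with medians of -0.14, -0.13 and -0.08, and none was called. In intact cells TGFB1 lowered 21 of the cell cycle genes. With the block the cyclin Ccnd1 rose, from 56.6, 48.7 and 33.6 FPKM to 101, 68.2 and 59.8 FPKM, and so did the sterol desaturase Sc5d. Of the Hox genes, which keep positional identity, Hoxc6 rose and Hoxa2 and Hoxb2 fell with the block.

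Stromal markers were high in both groups, and epithelial and endothelial markers were low as sums. Leukocyte markers are given above. All 12 fibroblast markers were measured, and they summed to between 5989 and 10480 FPKM in Vehicle and between 4200 and 8246 FPKM in Tgfbr2KO_TGFB1. The 10 smooth muscle and pericyte markers summed to 5192 to 6431 and 4147 to 6443 FPKM. None of either list was called, and with the block Mcam, a pericyte marker, fell. Fibroblast markers had pair medians of -0.926, -0.202 and -0.0295, so they were lowest in pair 1. Of the 11 epithelial markers, Epcam, Cdh1, Vil1, Cldn7, Lgr5, Muc2 and Lypd8 were under 1 FPKM in every library of both groups. The keratins Krt8, Krt18 and Krt20 were under 1 FPKM in every Vehicle library but not in every treated knockout library. Krt19 was not under 1 FPKM throughout either group. The 11 epithelial markers summed to 29.5 FPKM in treated knockout replicate 1 against 6.28 to 9.80 FPKM in the other 5 libraries. The 8 endothelial markers summed to 5.12, 1.01 and 15.1 FPKM in Vehicle and to 6.16, 14.7 and 15.2 FPKM in the treated knockout. The 9 enteric glia and neuron markers summed to 252, 256 and 204 FPKM in Vehicle and to 228, 236 and 178 FPKM in the treated knockout. All of them but Uchl1 and Tubb3 were under 1 FPKM in every library of both groups. The part of such cells in the differences above was not tested.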

How the data were processed

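RNA was measured in 12 libraries, 3 per group. Per the labels' protocols, these were prepared commercially from polyadenylated RNA. Gene-level FPKM, 1 row a symbol, is the unit the authors deposited. The tools named are kallisto 0.46.1 and DESeq2 1.40.1, with the mm9 build, per the submitters' processing notes, and how they led to the FPKM is not given in the sources used here. Counts were not used here. Relative depth was read from the ratios of low FPKM values, and absolute depth is unknown.

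Group means of log2(FPKM + 1), which understates changes of low genes, were fitted to all 12 libraries with limma 3.58.1 in R 4.3.3 (8 residual degrees of freedom, variance trend, empirical Bayes). P-values were adjusted by Benjamini and Hochberg over the 12215 genes, with a threshold of 0.05. All fits and list medians are differences of log2(FPKM + 1), and folds are ratios of mean FPKM. Python 3.11.15, numpy 2.4.6, pandas 2.3.3 and matplotlib 3.10.9 served for counts and figures, and the fit was tested on simulated data.

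The genes named are the called genes without overlap that reach a mean of 5 FPKM in either group, the 12 widest in each direction, up to 4 called members of each list (of a list with none, examples from the 2 widest), and a set of pathway genes, of which 1 is not reported here. Members passing with the block only, and others so marked, were added after their values were seen. The members and lists were chosen with earlier results of these data known, so list counts are descriptions.

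The labels give the groups the same replicate numbers (31, 121 and 123). Deviations of same-numbered Vehicle and Tgfbr2KO_TGFB1 libraries correlated across genes at 0.433, 0.184 and 0.635. Vehicle replicate 2 correlated more with Tgfbr2KO_TGFB1 replicate 1 (0.259), Vehicle replicate 1 with replicate 2 gave 0.124, and the other pairs were negative. Every same-numbered value was above 0.1, but so were 0.259 and 0.124 between unlike numbers, so the correlations do not settle the pairing. The numbers were taken to pair the libraries because the labels share them. Values with the number as a block (6 residual degrees of freedom) rest on this and are given where they change a call. Whether a group's libraries stem from separate animals is not stated, so the spread behind each p-value is between libraries and may be technical. Alternatives were the block, pseudocounts, filters, scalings, fits of fewer libraries, and no variance trend. Promoter windows came from RefSeq (GRCm38.p6), the first window being used where a gene has several, and 9586 of the 12215 genes matched. Coordinates are given for the printed promoter windows only, in that build, since the submitters' notes name another.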

Additional observations from a re-analysis of the deposited data

How the results depend on the processing

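Of the 12215 genes, 58 were called between Tgfbr2KO_TGFB1 and Vehicle, and this count moved with most choices. It was 639 with the replicate block, 24 with a pseudocount of 0.1, 20 with no filter, 32 with the filter taken over 12 libraries, 32 with upper-quartile scaling and 28 with no variance trend. It was 0 with only the 2 groups compared (limma, 1341 at an unadjusted p under 0.05). Leaving out 1 library gave 0 to 346. Of alternatives chosen after seeing the data, the replicate block gave 99 with only the 2 groups, 854 with no libraries numbered 3 and 535 within each genotype. Of these, 18, 49 and 57 were among the 58. The count of genes with an interval within 2-fold was 19051 with no filter, where 20501 genes were tested, and 10607 to 11584 under the settings that kept the 12215 genes. For library distances, the median between Vehicle and Tgfbr2KO_TGFB1 was 0.1195 with no filter. For Tgfbr2KO_Vehicle against Vehicle, 165 became 1882 with the replicate block, 71 with no filter, 0 with only the 2 groups (limma, 2667 unadjusted), 50 with no libraries numbered 3, 1184 with the replicate block and none numbered 3, 1714 with the block within each genotype, and 0 to 84 without 1 library. The counts for TGFB1 against Vehicle and Tgfbr2KO_TGFB1 against TGFB1 stayed within 1.5 times under every setting, but upper-quartile scaling moved the share of higher calls from 53.2% to 43.4% in the first and from 46.6% to 53.6% in the second. Col6a3 and Mir145a lost the call only with the 2 groups alone and without Tgfbr2KO_TGFB1 replicate 2. The median standard error of 0.107 and its 95% interval of 0.236 to either side limit what could be told apart, and the cause of the shifts was not tested.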

Other observations

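Further gene lists also lay near Vehicle in the ligand-treated knockout, with no called member. The 95% interval of the difference lay within 2-fold for all 7 Notch pathway genes tested, 14 of 15 YAP-TEAD targets, 14 of 16 basement membrane genes and 19 of 22 glycolysis and hypoxia genes, with medians of -0.01, -0.04, -0.06 and -0.02. Of these 4 lists, 1 member passed with the replicate block. Ajuba, a LIM protein that binds LATS kinases, fell from 38.8, 39.0 and 38.3 FPKM in Vehicle to 32.9, 29.0 and 28.4 FPKM (limma adjusted p = 0.0629 without and 0.0188 with the block). Of 9 WNT pathway targets tested, also with none called, Nkd2, an inhibitor of WNT signalling, rose with the block from 8.13, 7.82 and 7.00 FPKM to 13.9, 12.4 and 10.5 FPKM (0.0911 and 0.028). Neither Ajuba nor Nkd2 overlapped between the groups.

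Fabp4, a fatty acid carrier of fat cells, was the 1 member of the 16 adipogenic and lipid storage genes tested to pass with the block. It was at 6.58, 7.86 and 18.8 FPKM in Vehicle and at 14.3, 16.2 and 28.6 FPKM in the treated knockout (limma adjusted p = 0.358 without and 0.0275 with the block). Replicate 3 was the highest library in both groups. The list's median was 0.12, against -0.84 for TGFB1 minus Vehicle. Of 6 keratin and cornified envelope genes tested, Sprr1a rose with the block, from 2.64, 4.37 and 1.92 FPKM to 15.7, 7.43 and 5.49 FPKM (0.113 and 0.0345), and Jup, a junction protein, fell from 31.8, 33.5 and 34.7 FPKM to 25.9, 26.6 and 29.7 FPKM (0.131 and 0.0282). Adm, the hypoxia-induced peptide adrenomedullin, did not pass in either fit, at 67.9, 76.7 and 36.0 FPKM in Vehicle and 147, 139 and 71.0 FPKM in the treated knockout (0.178 and 0.0552), although it was higher in all 3 pairs.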
